A study of Bos taurus with 8 samples.

Results

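Fatty acid oxidation breaks acyl chains down to acetyl-CoA. The genes described here are 31 genes of this process, chosen by symbol from the 28709 genes of the deposited table, and all 31 were found. By the compartment in which the protein is known to work, 20 encode mitochondrial proteins, 4 peroxisomal enzymes and 4 proteins of both or another compartment, and 3 encode regulators. They were measured by sequencing of poly(A) RNA in BUTE cells, an immortalized epithelial line derived from the uterus of 1 Holstein cow and labelled wild type. All cells spent a first 24 h in medium free of serum and steroids that held insulin-like growth factor 1. For the next 24 h they received 10 µM progesterone or its vehicle, DMSO, in both groups with the growth factor at 50 ng/ml and without serum. Each group had 4 libraries, and the labels do not say whether these came from separate cultures, so p-values measure only the spread between these libraries.

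In mitochondria, long acyl chains enter as carnitine esters through CPT1 enzymes, the carrier SLC25A20 and CPT2. Each turn of the spiral then uses an acyl-CoA dehydrogenase, a hydratase, a hydroxyacyl-CoA dehydrogenase and a thiolase, and the dehydrogenases pass electrons to the respiratory chain through the electron transfer flavoprotein. Peroxisomes shorten very long, branched and bile acid side chains with acyl-CoA oxidases that give their electrons to oxygen, so that hydrogen peroxide is formed. The nuclear receptors PPARA and PPARD, with the coactivator PPARGC1A, are known activators of these genes.

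The libraries held 23810861 to 32509786 estimated counts, and the ranges of the groups overlapped. Libraries are called by their column in the deposited table, which could not be matched to single samples: R1, R3, R7 and R9 for DMSO, and R1, R2, R3 and R6 for the hormone. DMSO R7 and R9 stood apart from the other 6 libraries on the first principal component of all genes, which held 62.2% of the variance, so the genes were also compared without them, as 2 DMSO against 4 progesterone libraries. Of the epithelial markers, KRT8 was at 2286 to 2789 CPM (TMM-scaled counts per 1e6 of a library) after DMSO and 1348 to 2107 CPM after progesterone, and KRT19 at 255 to 706 CPM over both groups, while EPCAM lay between 0.275 and 2.53 CPM and CLDN3 and CLDN4 at 0.238 CPM or less. The 8 epithelial markers summed to 2821 to 3073 CPM after DMSO and 1739 to 2659 CPM after progesterone. Of the stromal markers, VIM lay between 5814 and 7467 CPM, while PDGFRA, PDGFRB and THY1 were at 27.9 CPM or less. COL1A1 was at 1928 to 6554 CPM after DMSO and 1516 to 1851 CPM after progesterone, and COL1A2 at 4056 to 6652 and 2970 to 3597 CPM. KRT8, COL1A1 and COL1A2 were thus lower in every progesterone library than in any DMSO library (edgeR adjusted p = 0.0744, 0.102 and 0.0627), and their part in the results below was not tested. The 5 smooth muscle markers summed to 2094 to 2922 CPM after DMSO, highest in R7 and R9, and to 1572.5 to 2110 CPM after progesterone. ACTA2 lay between 542 and 771 CPM and TAGLN between 885 and 2203 CPM, while MYH11 was at 0.176 CPM or less. Of these smooth muscle markers DESeq2 called TAGLN lower with all libraries, and edgeR and limma voom called none. DESeq2 also called epithelial EPCAM, KRT18 and KRT8 and stromal COL1A1 and COL1A2 lower with all libraries, where it called 13.5% of all genes. Neither edgeR nor limma voom called any epithelial or stromal marker. Without R7 and R9, DESeq2 called DCN and CNN1 lower, where it called 4.38% of all genes. The part of all these markers in the results was not tested either. The 5 immune markers summed to at most 13.9 CPM and the 4 endothelial ones to at most 5.87 CPM. PTPRC, the pan-leukocyte marker, had 0 counts in every library, which allows up to 0.124 CPM in a library, for counting error only.

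One of the genes of fatty acid oxidation changed with progesterone, and it rose: ACOX2, a peroxisomal oxidase of branched acyl chains and bile acid intermediates. Of 31 genes, 30 had enough counts to be tested, 1 rose, 0 fell and 29 did not pass at the threshold of 0.05 (edgeR quasi-likelihood test, with Benjamini-Hochberg adjusted p over all 13557 genes tested). The share of all genes called was 2.65%, of which 1.69% rose and 0.959% fell, and 1 of 30 is 3.33%. Unadjusted p was under 0.05 for 10 of the 30, 5 higher and 5 lower, which is 33.3% against 26.8% of all genes. Without DMSO R7 and R9, none of the 30 passed in edgeR, where 1.18% of all genes did (0.995% higher and 0.182% lower). In that comparison 4 had an unadjusted p under 0.05 (13.3%, against 15.9% of all genes). DESeq2 called 4 of the 30 with all libraries (ACOX2, HADH and PPARA higher and ACADM lower), against 13.5% of all genes. Without R7 and R9 it called ACOX2 and ACADM, against 4.38% of all genes. Limma voom called ACOX2 alone with all libraries (background 2.04%) and none of the 30 without R7 and R9 (background 0.988%).

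Changes were small in size. The median log2 fold change over the 30 genes was 0.08, against -0.01 over all genes, and 18 were above and 12 below 0. The median of its absolute value was 0.18, against 0.21 over all genes. For 29 of 30 genes the 95% interval of the log2 fold change lay inside a 2-fold change either way, and for 21 inside a 1.5-fold change. The shares of all genes were 80.3% and 54.3%. The 9 whose intervals reached 1.5-fold were ACOX2, EHHADH, HADH, ACADL, ETFA, ECI1, CPT1B, ECI2 and PPARA. Libraries of the groups did not overlap for 3 genes that were higher after progesterone (10.0%, against 7.95% of all genes) and 5 that were lower (16.7%, against 8.22%).

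**Figure D1:**
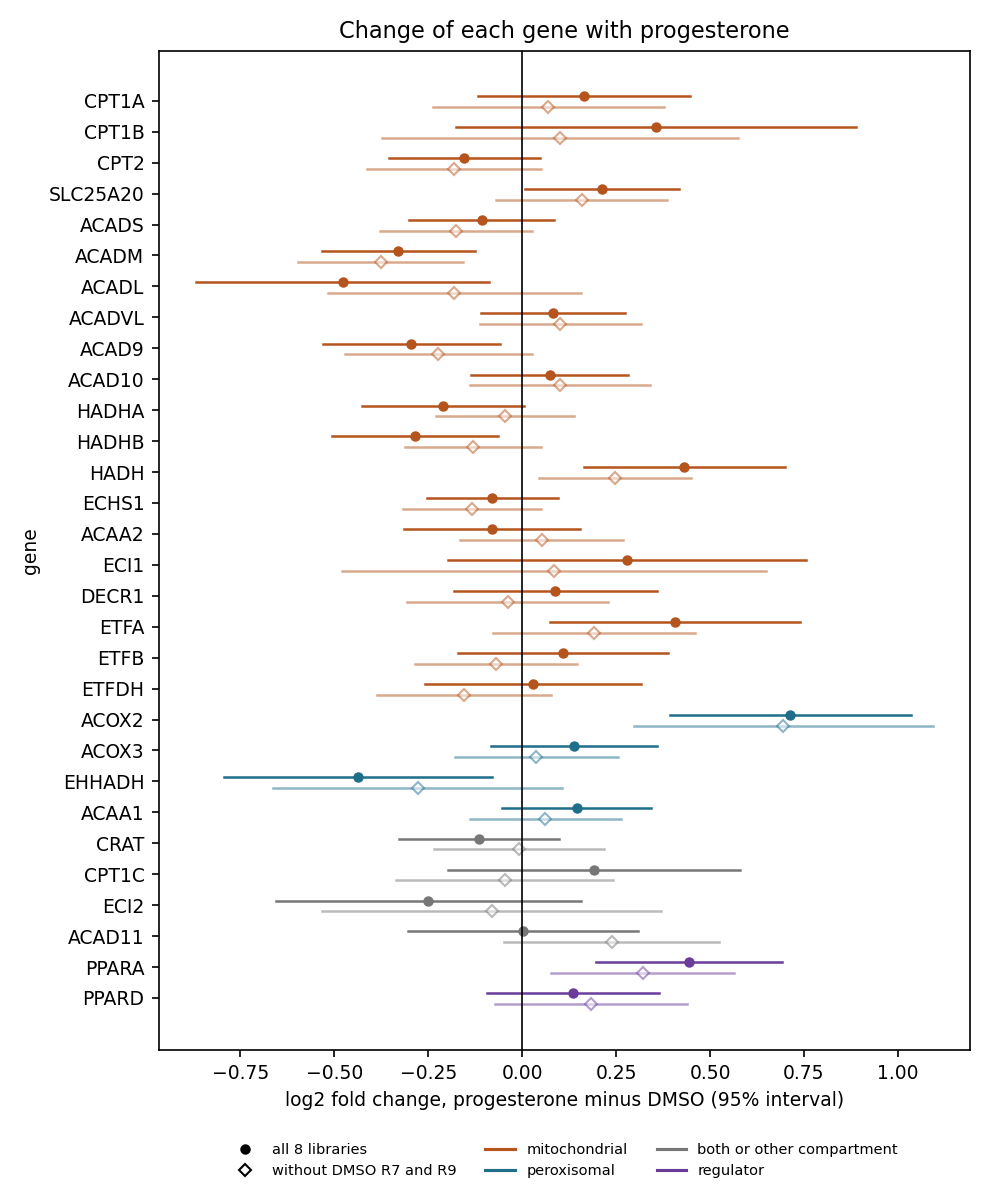
Log2 fold change of the 30 tested genes, progesterone minus DMSO, with 95% intervals; filled circles use all 8 libraries and open diamonds leave out DMSO R7 and R9. ACOX2, at 0.71, is the one gene past the threshold with all libraries, and most other intervals include 0.

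The 4 peroxisomal enzymes did not move together. ACOX2 (Entrez Gene 514969, chromosome 22) was at 23.4, 14.7, 17.6 and 18.8 CPM in DMSO R1, R3, R7 and R9. With progesterone it was at 33.6, 32.5, 26.5 and 29.6 CPM in R1, R2, R3 and R6. Every progesterone library lay above every DMSO library, and DMSO R1 came nearest. The means were 18.6 ± 3.61 and 30.6 ± 3.18 CPM (SD, n = 4 each), a 1.64-fold rise (log2 fold change 0.71 ± 0.14 SE, 95% interval 0.39 to 1.03, edgeR adjusted p = 0.0365).

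The size of the ACOX2 change held across libraries, and its call did not. Without DMSO R7 and R9 the log2 fold change was 0.70 (edgeR adjusted p = 0.0966). Leaving out 1 library at a time gave values between 0.62 and 0.84. The adjusted p was 0.0113 without DMSO R1 and 0.0394 without DMSO R3, and ACOX2 did not pass when any of the other 6 was left out. The adjusted p was then 0.103 (DMSO R7 left out) and 0.0890 (DMSO R9), and for progesterone 0.0956 (R1), 0.117 (R2), 0.0760 (R3) and 0.0956 (R6).

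EHHADH, the peroxisomal enzyme with both hydratase and hydroxyacyl-CoA dehydrogenase activity that acts after the oxidases, was lower in every progesterone library. It was at 8.33, 7.75, 8.99 and 10.5 CPM after DMSO and at 7.43, 6.03, 5.58 and 7.24 CPM after progesterone. The log2 fold change was -0.44 ± 0.16 SE and did not pass (edgeR adjusted p = 0.126), and it was -0.28 without R7 and R9 (0.481), the DMSO libraries with the highest values. The lowest DMSO library, R3 at 7.75 CPM, lay close to the highest progesterone library, R1 at 7.43 CPM.

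ACOX3, the oxidase named for pristanoyl-CoA, was at 34.4 ± 3.47 CPM after DMSO and 37.8 ± 2.79 CPM after progesterone. ACAA1, the peroxisomal thiolase, was at 74.8 ± 6.25 and 82.7 ± 6.09 CPM. Their log2 fold changes were 0.14 ± 0.10 and 0.15 ± 0.09 SE (edgeR adjusted p = 0.388 and 0.314). Both were lower in DMSO R7 and R9 than in any other library, and without these the log2 fold changes were 0.04 and 0.06.

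**Figure D2:**
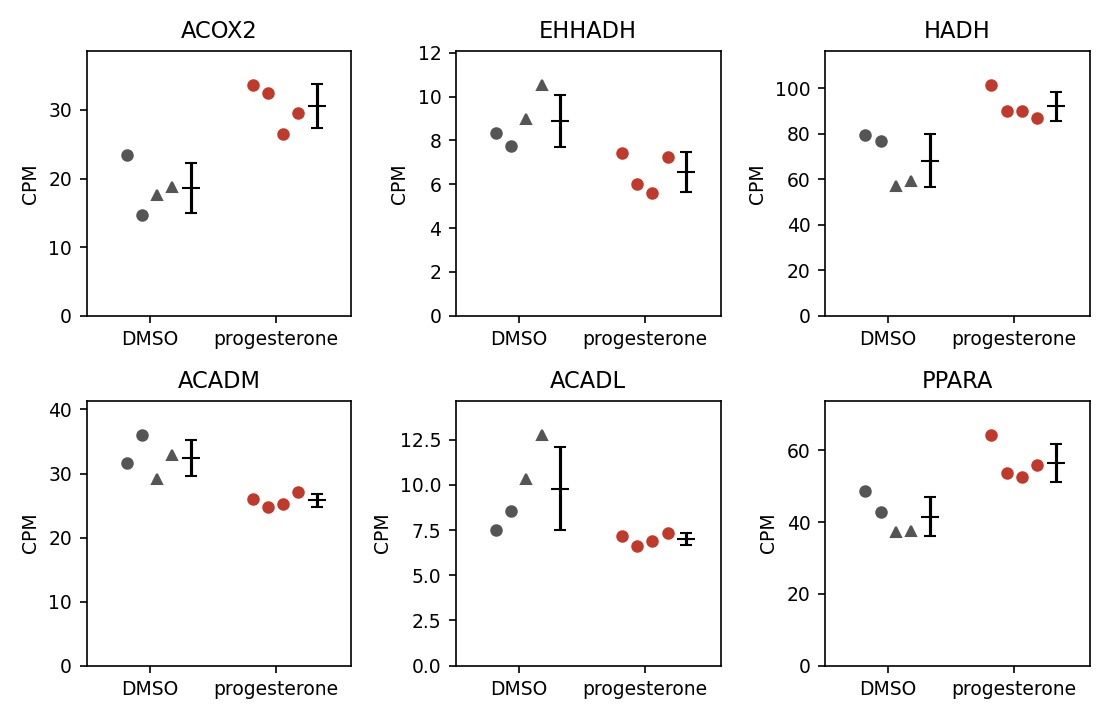
CPM of ACOX2, EHHADH, HADH, ACADM, ACADL and PPARA in each library; grey marks are DMSO (triangles R7 and R9), red marks progesterone, and the bars give mean and SD of 4 libraries. The groups do not overlap for any of the 6, and for EHHADH, HADH, ACADL and PPARA the triangles lie farthest from the progesterone values.

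The 4 mitochondrial genes of carnitine-dependent entry did not pass in edgeR (1 with an unadjusted p under 0.05, 0 called by DESeq2 or limma voom). Of all genes, edgeR, DESeq2 and limma voom called 2.65%, 13.5% and 2.04%, and 26.8% had an unadjusted p under 0.05. CPT1A, which makes the carnitine esters at the outer membrane and is inhibited by malonyl-CoA, was at 137, 137, 123 and 112 CPM after DMSO and at 133, 152, 170.2 and 113 CPM after progesterone. The groups overlapped, and the log2 fold change was 0.16 ± 0.13 SE (95% interval -0.12 to 0.45, edgeR adjusted p = 0.424), and 0.07 when R7 and R9 were left out. CPT1B, the form known from muscle, was low at 1.83 to 3.45 CPM after DMSO and 3.03 to 4.18 CPM after progesterone (0.36 on the log2 scale, and 0.10 when R7 and R9 were left out). SLC25A20, the carnitine-acylcarnitine exchanger of the inner membrane, was at 23.6 to 26.9 CPM after DMSO and 26.3 to 31.3 CPM after progesterone (0.21 ± 0.09 SE, adjusted p = 0.175). CPT2, which returns the chain to CoA in the matrix, had the opposite sign, at 48.4 ± 1.73 and 43.5 ± 4.14 CPM (-0.15 ± 0.09 SE, adjusted p = 0.293). CPT1A, B and C are related genes, and the estimated counts divide shared reads between such genes by a model.

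Among the 6 mitochondrial acyl-CoA dehydrogenase genes, none passed in edgeR, 1 was called by DESeq2 and 0 by limma voom (backgrounds 2.65%, 13.5% and 2.04%). Unadjusted p was under 0.05 for 3, against 26.8% of all genes. For 3 genes every progesterone library lay below every DMSO library, against 8.22% of all genes. ACADM, the medium-chain enzyme, was at 31.6, 36.0, 29.2 and 32.9 CPM after DMSO and at 26.1, 24.8, 25.3 and 27.0 CPM after progesterone. The means were 32.4 ± 2.83 and 25.8 ± 0.980 CPM (log2 fold change -0.33 ± 0.09 SE, 95% interval -0.53 to -0.13, edgeR adjusted p = 0.0736). Without R7 and R9 the value was -0.38 (adjusted p = 0.0987), so for this gene the libraries that stood apart did not enlarge the difference.

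ACADL, the long-chain dehydrogenase, behaved otherwise. It was at 7.51 and 8.56 CPM in DMSO R1 and R3, at 10.3 and 12.7 CPM in R7 and R9, and between 6.62 and 7.36 CPM after progesterone. The log2 fold change was -0.48 ± 0.18 SE with all libraries (edgeR adjusted p = 0.126) and -0.18 without R7 and R9 (0.610). ACAD9, which also serves in the assembly of respiratory complex I, was at 35.5 ± 3.23 and 28.9 ± 2.95 CPM (-0.30 ± 0.11 SE, adjusted p = 0.120). Leaving out R7 and R9 gave -0.22.

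The other 3 dehydrogenases overlapped between the groups. ACADVL, the very-long-chain enzyme of the inner membrane, was at 128 to 147 CPM after DMSO and 129.6 to 159 CPM after progesterone. ACADS, the short-chain enzyme, was at 71.9 to 82.7 and 67.9 to 80.7 CPM. ACAD10 was at 41.0 to 49.1 and 45.7 to 53.7 CPM. Their log2 fold changes were 0.08, -0.11 and 0.07, each smaller than 2 times its SE of 0.09.

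The subunits of the mitochondrial trifunctional protein, HADHA and HADHB, and the short-chain hydroxyacyl-CoA dehydrogenase HADH had opposite signs. HADH was at 79.7 and 76.9 CPM in DMSO R1 and R3 and at 57.0 and 59.3 CPM in R7 and R9. With progesterone it was at 101, 89.9, 89.8 and 87.1 CPM, above every DMSO library. The log2 fold change was 0.43 ± 0.12 SE with all libraries (95% interval 0.16 to 0.70, edgeR adjusted p = 0.0736) and 0.25 ± 0.09 without R7 and R9 (0.225).

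HADHA was at 113, 107, 126.5 and 142 CPM after DMSO and at 110.5, 104, 107 and 100.3 CPM after progesterone. HADHB was at 142, 138, 154 and 183 CPM after DMSO and at 132, 124, 130.2 and 120.0 CPM after progesterone. For both the highest values were in DMSO R9 and R7. The log2 fold changes were -0.21 ± 0.10 for HADHA and -0.28 ± 0.10 for HADHB (SE, edgeR adjusted p = 0.195 and 0.114), and -0.05 and -0.13 without R7 and R9. The genes of this pair both lie on chromosome 11, and the order of their libraries was alike. The log2 ratio of HADHA to HADHB counts was between -0.37 and -0.28 after DMSO and between -0.28 and -0.26 after progesterone. The means differed by 0.07. This ratio was chosen after the values were seen and is given as a description.

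ECHS1, the short-chain hydratase, varied little in the progesterone group, at 45.2 to 45.9 CPM, with 44.8 to 51.1 CPM after DMSO. ACAA2, the matrix thiolase, was at 27.0 to 35.9 CPM after DMSO and 26.6 to 29.4 CPM after progesterone. Neither passed (log2 fold change -0.08 for each, edgeR adjusted p = 0.536 and 0.649). Of the auxiliary enzymes for unsaturated chains, the isomerase ECI1 was at 36.5, 47.7, 32.0 and 29.6 CPM after DMSO and at 35.8, 35.6, 64.6 and 40.9 CPM after progesterone. Progesterone R3 alone was high, and the difference between the groups was within the spread of the libraries (0.28 ± 0.21 SE, and 0.08 when R7 and R9 were left out). The reductase DECR1 was at 15.3 ± 2.05 and 16.3 ± 0.938 CPM.

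The electron transfer flavoprotein carries electrons from the mitochondrial acyl-CoA dehydrogenases to its oxidoreductase, ETFDH. ETFA, its alpha subunit, was at 40.6 and 42.2 CPM in DMSO R1 and R3, at 29.8 and 28.6 CPM in R7 and R9, and at 40.0, 47.2, 45.3 and 54.7 CPM after progesterone. The log2 fold change was 0.41 ± 0.15 SE (edgeR adjusted p = 0.126) and, without R7 and R9, 0.19 (0.490). ETFB, the beta subunit, was at 113 and 110.0 CPM in DMSO R1 and R3, at 78.8 and 88.7 CPM in R7 and R9, and at 108, 99.97, 118 and 94.6 CPM after progesterone. Its log2 fold change was 0.11, and -0.07 when R7 and R9 were left out. ETFDH was at 39.8 ± 7.08 and 40.6 ± 3.39 CPM. For all 3 genes the lowest values were those of DMSO R7 and R9, and the progesterone libraries overlapped DMSO R1 and R3. The log2 ratio of ETFA to ETFB was -1.47 ± 0.11 after DMSO and -1.17 ± 0.30 after progesterone (SD, n = 4 each), and the groups overlapped.

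The 4 genes of both or another compartment did not pass, and none had an unadjusted p under 0.05. DESeq2 and limma voom called 0 of these 4. CRAT, which transfers acetyl groups to carnitine in mitochondria and peroxisomes, was at 178 to 219.7 CPM after DMSO and 168 to 205 CPM after progesterone. CPT1C, a relative of CPT1A in the endoplasmic reticulum, was at 10.7 and 10.8 CPM in DMSO R1 and R3, at 6.45 and 8.17 CPM in R7 and R9, and at 9.78 to 10.8 CPM after progesterone. The isomerase ECI2 was at 5.69 ± 0.757 and 4.79 ± 0.756 CPM. ACAD11 had means of 20.0 CPM in both groups, and its log2 fold change moved from 0.00 to 0.24 without R7 and R9, where it was highest (edgeR adjusted p = 0.406).

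Of the 3 regulators, PPARA came nearest to the threshold. It was at 48.6, 42.7, 37.3 and 37.5 CPM in DMSO R1, R3, R7 and R9 and at 64.2, 53.6, 52.5 and 55.9 CPM in progesterone R1, R2, R3 and R6. Every progesterone library was above every DMSO library. The means were 41.6 ± 5.35 and 56.5 ± 5.31 CPM (log2 fold change 0.44 ± 0.11 SE, 95% interval 0.20 to 0.69, edgeR adjusted p = 0.0626), and the value without R7 and R9 was 0.32 ± 0.11 (0.189). PPARD was at 90.0 to 103 CPM after DMSO and 90.2 to 123 CPM after progesterone (0.14 ± 0.10 SE, adjusted p = 0.415). PPARGC1A, the coactivator, had 4 to 8 counts in a DMSO library and 3 to 5 in a progesterone library, fell below the filter and was not tested.

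**Figure D3:**
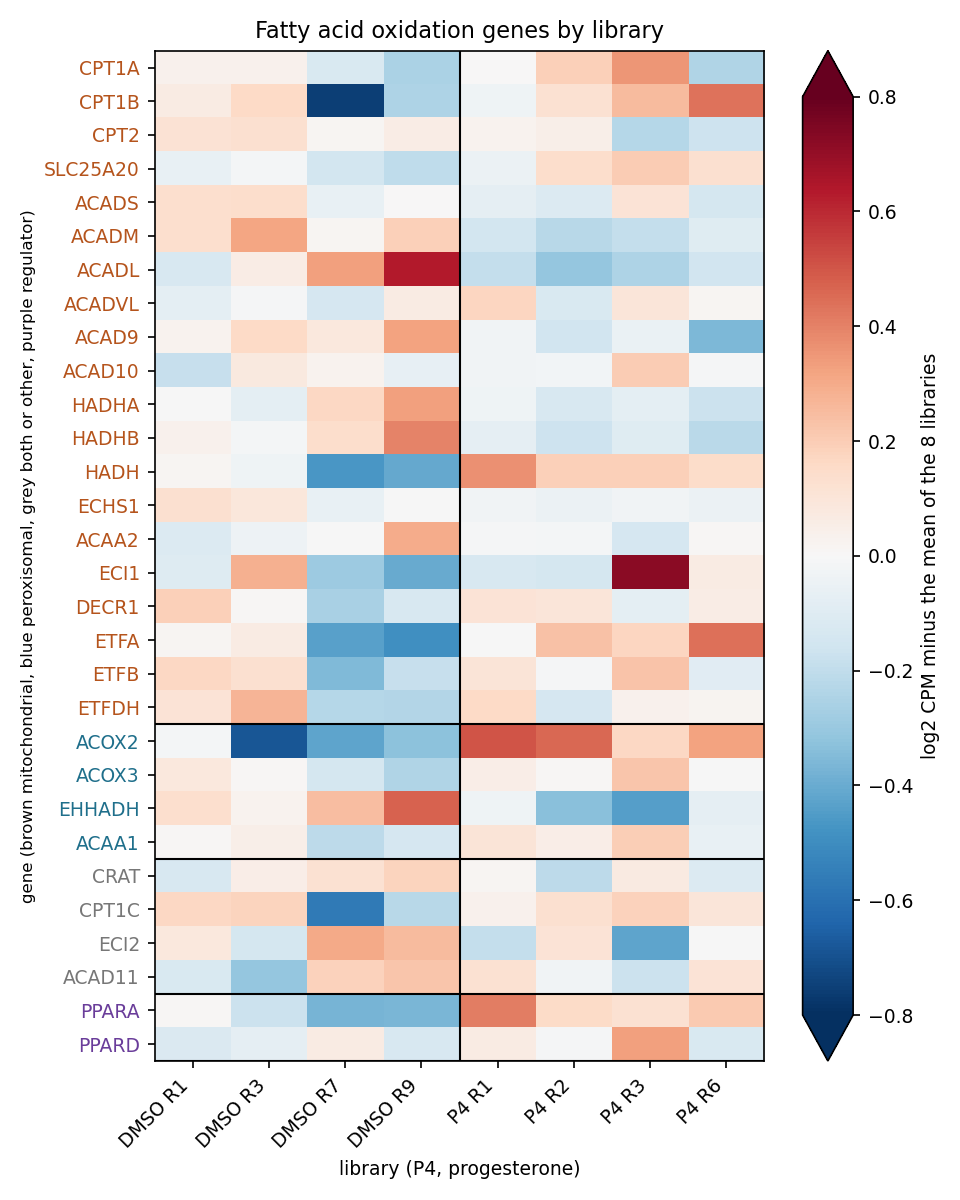
Log2 CPM of the 30 tested genes in each library minus the mean of the 8 libraries, grouped by compartment; red is above and blue below that mean, and colours end at 0.8. DMSO R7 and R9 differ from DMSO R1 and R3 in many rows, such as HADH, ETFA, ETFB and CPT1C (lower) and ACADL, HADHA and HADHB (higher), while ACOX2 and PPARA are higher across the progesterone columns.

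Mitochondrial and peroxisomal genes were then set side by side. Of 20 mitochondrial genes 0 passed in edgeR, 2 in DESeq2 and 0 in limma voom, against 2.65%, 13.5% and 2.04% of all genes. Unadjusted p was under 0.05 for 7, against 26.8% of all genes. Their median log2 fold change was 0.05, with 11 of the 20 above and 9 below 0. Of 4 peroxisomal genes 1 rose in edgeR, against 1.69% of all genes. The peroxisomal median was 0.14, with 3 above and 1 below 0. Without R7 and R9 the medians were -0.04 and 0.05. The difference of the medians, mitochondrial minus peroxisomal, was -0.09 with and without R7 and R9. By library, the median deviation of the mitochondrial genes from their mean over the 8 libraries, minus that of the peroxisomal genes, was -0.02, 0.05, 0.08 and 0.15 in DMSO R1, R3, R7 and R9. It was -0.11, -0.07, -0.11 and 0.00 in progesterone R1, R2, R3 and R6. Progesterone R6 lay inside the DMSO range and the other 3 below it. The pooled SD between libraries of a group was 0.06. With 4 peroxisomal genes that differed in sign among themselves, the median rests on ACOX3 and ACAA1, whose values were 0.14 and 0.15. Counting ECI2 and ACAD11 as peroxisomal and CRAT as mitochondrial moved the difference to -0.04.

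**Figure D4:**
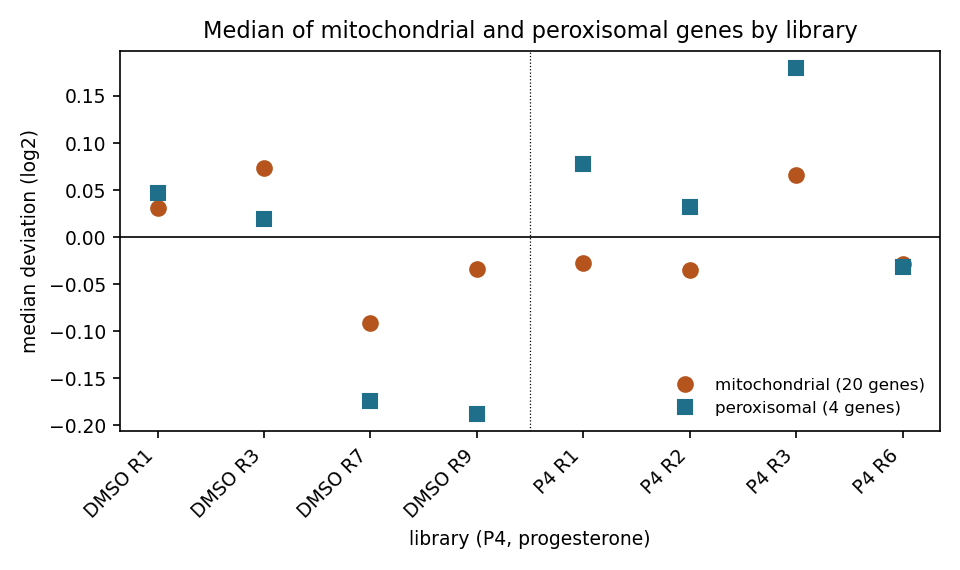
Median over the 20 mitochondrial (circles) and 4 peroxisomal (squares) genes of the deviation of log2 CPM from the mean of the 8 libraries. The peroxisomal median is lowest in DMSO R7 and R9 and highest in progesterone R3, and the mitochondrial median stays within 0.1 of 0 in every library.

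DMSO R7 and R9 both lay below the other 6 libraries for 12 of the 30 genes (40.0%, against 24.0% of all genes) and both above them for 7 (23.3%, against 25.2%). The 12 were CPT1B, SLC25A20, HADH, ECI1, DECR1, ETFA, ETFB, ETFDH, ACOX3, ACAA1, CPT1C and PPARA. The 7 were ACADL, HADHA, HADHB, EHHADH, CRAT, ECI2 and ACAD11. ACOX2 and ACADM were in neither set. Summed stromal markers were at 20406 and 18865 CPM in R7 and R9 and at 11952 to 13456 CPM in the other 6 libraries. COL1A1 and COL1A2 were higher in R7 and R9 than in the other 6, whereas DCN was lower (268 and 281 CPM, against 522 to 962 CPM), as was PDGFRB (2.21 and 3.97 CPM, against 4.08 to 8.16 CPM). Epithelial markers differed there too, in both directions. KRT19 (255 and 258 CPM, against 361 to 706 CPM), KRT7 (5.70 and 6.09 CPM, against 12.2 to 35.3 CPM) and CDH1 were lower in R7 and R9. KRT18 (5.87 and 6.92 CPM, against 0.948 to 2.22 CPM), EPCAM (1.97 and 2.53 CPM, against 0.275 to 0.624 CPM) and KRT8 were higher. The part of these markers in the differences above was not tested.

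The wider pathway gave few calls. Of 13 other peroxisomal fatty acid enzymes and transporters, 0 passed in edgeR (1 with an unadjusted p under 0.05, 1 called by DESeq2 and 0 by limma voom). HACL1, a lyase of branched-chain breakdown, was at 33.8, 39.8, 20.1 and 20.3 CPM after DMSO and at 39.5, 39.4, 40.2 and 37.6 CPM after progesterone. DMSO R7 and R9 were low, and the log2 fold change was 0.46 ± 0.21 SE (edgeR adjusted p = 0.189) and 0.11 when they were left out (0.650). HSD17B4, the bifunctional enzyme of branched chains, had a log2 fold change of -0.03. Of 17 genes of peroxisome assembly with catalase, 0 passed (1 with an unadjusted p under 0.05, 0 by either other tool), with a median of -0.05.

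Of 20 other mitochondrial acyl-CoA enzymes, 0 passed in edgeR (5 with an unadjusted p under 0.05, 1 called by DESeq2 and 0 by limma voom), with a median of 0.12. Of 5 ketone body enzymes, 0 passed (1 with an unadjusted p under 0.05, 0 by either other tool with all libraries). Of 14 partners of PPAR and PGC-1, 0 passed (2 with an unadjusted p under 0.05, 0 by either other tool with all libraries). Without R7 and R9, DESeq2 called the ketone body dehydrogenase BDH2 and the PPAR partner RXRB higher, and edgeR and limma voom called neither; this pair was named after its values were seen. RXRA, which pairs with the PPARs, had a fitted log2 difference of 0.40 ± 0.15 SE (edgeR adjusted p = 0.123), which became 0.19 when R7 and R9 were left out (0.447). Of 9 measured PPAR targets outside oxidation, TXNIP fell and 8 did not pass in edgeR. DESeq2 called TXNIP and ANGPTL4 lower, and limma voom TXNIP alone. TXNIP, an arrestin that restrains glucose uptake, was at -1.78 on the log2 scale with all libraries and at -1.63 without R7 and R9, where edgeR did not call it (adjusted p = 0.146) and DESeq2 and limma voom did. ANGPTL4, a lipase inhibitor widely used as a PPAR readout, was at 4.20 to 7.79 CPM after DMSO and 2.36 to 4.50 CPM after progesterone (-0.90 ± 0.28 SE, edgeR adjusted p = 0.0879), and its value was -0.52 when R7 and R9 were left out (0.383).

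Calls were found among genes that make or activate fatty acids. Of 10 acyl-CoA synthetases 2 rose in edgeR, ACSL4 and SLC27A2, and 8 did not pass. Limma voom called the same pair, and DESeq2 also called SLC27A4 lower (log2 fold change -0.38 in edgeR). ACSL4, which prefers polyunsaturated chains, was at 485 to 585 CPM after DMSO and 785 to 941 CPM after progesterone (0.72 ± 0.10 SE as a log2 fold change, with an edgeR adjusted p of 0.00976), and 0.80 when R7 and R9 were left out (0.00855). SLC27A2, a synthetase of very long and bile acid chains found in peroxisomes and endoplasmic reticulum, was at 0.0679 to 0.294 CPM after DMSO and 0.951 to 1.99 CPM after progesterone. Its DMSO values were near the floor. It passed the filter only through the progesterone libraries, where it was high, so its call is not independent of that selection. Of 10 fatty acid synthesis genes 5 rose and 5 did not pass in edgeR, with a median of 0.54, and edgeR called 5 without R7 and R9 as well. Limma voom called 5 in either comparison, and DESeq2 called 8 over the 8 libraries and 9 when R7 and R9 were left out. Of all genes, edgeR called 2.65%, DESeq2 13.5% and limma voom 2.04% with all libraries. Without R7 and R9 the shares were 1.18%, 4.38% and 0.988%. Unadjusted p was under 0.05 for 26.8% of all genes with all libraries. Earlier results for the synthesis list were known when it was chosen. ACACA, whose product malonyl-CoA inhibits CPT1A, was at 168 to 225 CPM after DMSO and 213 to 281 CPM after progesterone. Its log2 fold change was 0.41 ± 0.13 SE with all libraries (edgeR adjusted p = 0.0992) and 0.65 without R7 and R9, where it passed (0.0332). Of the 11 genes of malonyl-CoA and AMP kinase control, ACACA included, 0 passed with all libraries (1 with an unadjusted p under 0.05, 1 called by DESeq2 and 0 by limma voom). Of 7 lipolysis genes 0 passed (3 with an unadjusted p under 0.05, 0 by either other tool), with a median of 0.41, and 0.14 without R7 and R9. The difference between these lists and the oxidation genes was not tested.

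**Figure D5:**
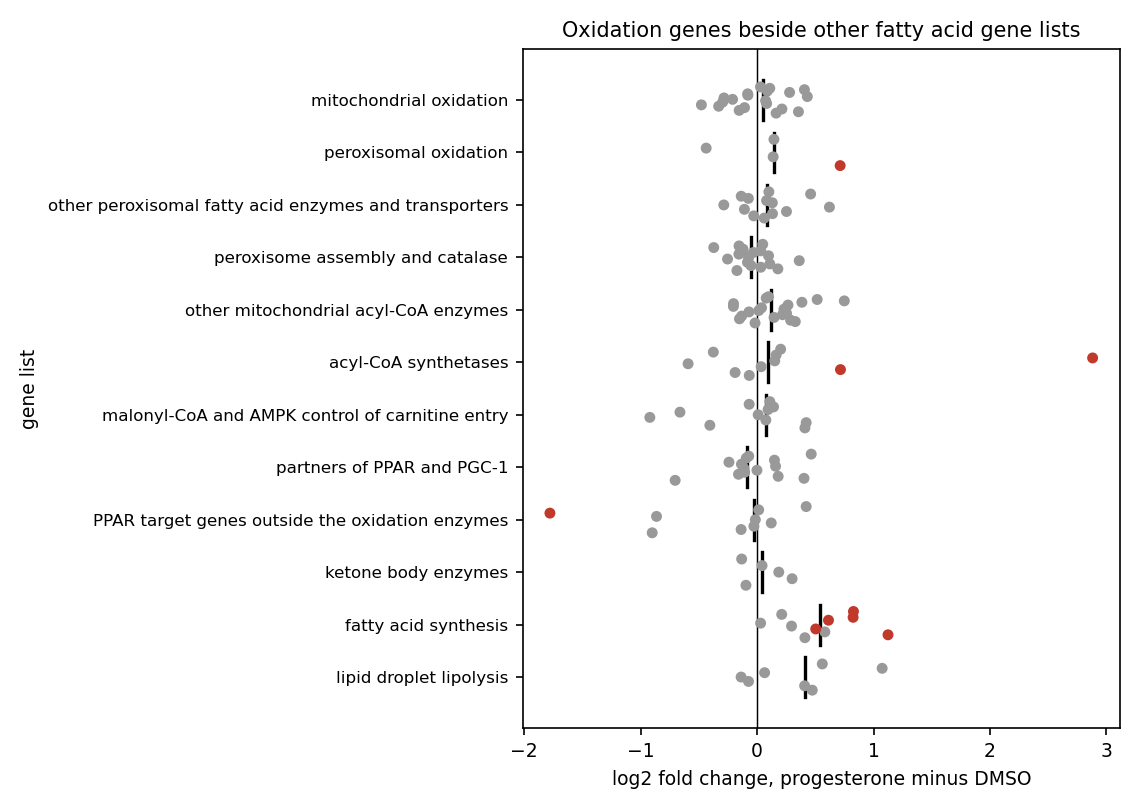
Log2 fold change with all 8 libraries of each tested gene in the oxidation groups and 10 other lists; red points passed at an adjusted p under 0.05, grey points did not, and black bars are medians. The oxidation genes lie between -0.48 and 0.71 with 1 red point, and 5 of the 10 fatty acid synthesis genes are red.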

How the data were processed

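Libraries had been made with a stranded mRNA kit, per the labels' protocols. The authors deposited 1 table of estimated counts per gene, named as length-normalized; totals differ between columns. Salmon 1.4.0, bcl2fastq and the build ARS-UCD1.2 are listed in the submitters' processing notes. The step from transcripts to genes is not stated there. Because CPM values are not divided by transcript length, levels of different genes are not compared. Counts were rounded, filtered with filterByExpr, scaled by TMM and tested with edgeR 4.0.16 (robust quasi-likelihood, two-sided, all 8 libraries, group as the only term), with Benjamini-Hochberg adjustment over all genes and a threshold of 0.05. The standard error is the log2 fold change divided by the square root of F. Deviations by library use log2 CPM with a prior count of 2. The test was checked on simulated counts in which all DMSO libraries shared the same mean. The check does not cover a difference such as that of DMSO R7 and R9. Every member was to be named, and of each other list at most 4 genes with the smallest p; HSD17B4 and, after its values were seen, the subunit ratios were added, and not every gene of these lists is reported here. The members, lists and alternatives were chosen with earlier results of these data known. All members matched by symbol. Of 131 other symbols 130 were matched, and ACOT2, present more than once, was left out. Chromosomes are those of the table. Libraries of 1 group were more different than sampling noise allows (chi-square per degree of freedom 14.2 to 129). Alternatives used DESeq2 1.42.0, limma 3.58.1, other scaling and filters, and fewer libraries.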

Additional observations from a re-analysis of the deposited data

Results flagged for a closer look

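In progesterone R3, ACAD10 was at 53.7 CPM, far from the 45.7 to 46.3 CPM of the other 3 progesterone libraries. Of 60 groups of 4 libraries examined this was the 1 with a library so far from the rest, and chance flags about 1 in 20, or 3 groups.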

How the results depend on the processing

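Over all genes, 359 passed; DESeq2's test called 1830, 162 passed without DMSO R7 and R9, and leaving out 1 library gave 42 to 1782. Of the 30 fatty acid oxidation genes 1 passed; DESeq2's test called 4, and 0 passed without R7 and R9, with a term for them or at a threshold of 0.01. Leaving out 1 library gave 0 to 4: 4 without DMSO R1, 1 without DMSO R3 and 0 without any of the other 6. The difference between the mitochondrial and peroxisomal medians moved by less than 0.0625 in every alternative run. That bound is the SD between single libraries of a group and not the error of the difference. Regrouping ECI2, ACAD11 and CRAT made the difference smaller in size. Other scaling and filters kept the count at 1.

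Columns R1 and R3 occur in both groups, but column numbers are not those of the samples. Deviations of same-numbered libraries correlated at 0.23 (R1) and 0.21 (R3). The same correlation was not computed for libraries of different numbers, so these values cannot show whether a shared column number marks a pair. A fit with this number as a replicate block rests on these 2 pairs, because every other library had a block to itself. It called 2531 of the 13557 genes tested, 5 of them among the 30 (ACOX2, HADH, PPARA and PPARD higher, ACADM lower). With so few residual degrees of freedom, its p-values rest mostly on variance shared between genes.

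Signs changed only for genes that did not pass. Without R7 and R9, and with a term for them, log2 fold changes were 0.052 and 0.038 for ACAA2, -0.038 and -0.051 for DECR1, -0.069 and -0.082 for ETFB, -0.15 and -0.17 for ETFDH, and -0.046 and -0.059 for CPT1C. With the replicate block they were -0.0018 for CPT1B, 0.0042 for ACAA2, -0.082 for DECR1, -0.092 for ETFDH, 0.081 for CRAT and -0.063 for CPT1C. Leaving out 1 library gave -0.088 to 0.080 for ACAD11, -0.040 to 0.14 for ETFDH and -0.13 to 0.015 for ACAA2. The cause of these moves was not tested.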
